A study of Mus musculus with 12 samples.

Results

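The 45 genes described here encode the machinery that copies DNA and the factors that bring cells into S phase. They are the origin recognition complex, the factors that load and fire the MCM helicase, the polymerases with their clamp and clamp loader, the proteins that finish lagging strands, and the enzymes that supply deoxynucleotides. The list was drawn up by name, with the library-scaled counts of these genes over the 4 sorted cell types already known. Differences between the types, and the calls of members given below, are therefore descriptions and not independent tests. All 45 were found, by Ensembl identifier and symbol, among the 38924 genes counted, and all 45 were among the 14170 genes that passed the filter on low counts. That filter keeps a gene that is high enough in any group of 3 libraries, but here no member had 3 counts or fewer in any library, and the lowest values were 4 counts for Gins3 and 4 for Fen1.

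RNA was sequenced from cells sorted from mouse embryos at E7.25, during gastrulation, when cardiac and blood-forming mesoderm are being laid down. All 4 groups came from the Foxa2Cre:Rosa26-YFP line, in which the Foxa2 promoter drives Cre recombinase and Cre switches on yellow fluorescent protein (YFP) for good, so YFP marks a history of Foxa2 expression and not its present level. The groups are YFP-positive cardiac mesoderm (labelled ventricular), YFP-negative cardiac mesoderm (labelled non-ventricular), endoderm sorted by EPCAM and hematopoietic mesoderm sorted by KDR, with 3 libraries each. No group was treated, and no time other than E7.25 was sampled. The labels do not say whether the 3 libraries of a type came from separate embryos or litters, so the p-values below measure the spread between these libraries, which may be technical.

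Replication begins with licensing in G1. The origin recognition complex (ORC), CDC6 and CDT1 load rings of MCM2-7 onto DNA, and geminin, the product of Gmnn, blocks CDT1 once S phase has begun. The kinase CDC7 with DBF4 and the cyclin E kinases then bring CDC45 and the GINS complex to MCM2-7 to make the active helicase, and polymerase alpha with primase lays down primers that polymerases delta and epsilon extend on the PCNA clamp. Transcription of many of these genes is driven by E2F factors as cells leave G1. Cells of the gastrulating mouse embryo are known to divide fast.

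The gene count totals ran from 4472800 to 7888631 per library, and genes took 18.3% to 21.5% of the reads tallied. Summed marker genes set endoderm, hematopoietic mesoderm and the cardiac types apart. Both cardiac types were scored on the same cardiac list, and no list was specific to either of them. Levels are given as CPM, the gene's count scaled to the library's counts in genes after trimmed-mean (TMM) scaling. Summed over 8 markers each, cardiac genes lay between 1181 and 1285 CPM in YFP-positive cells, between 901 and 1105 in YFP-negative cells and between 112 and 175 in endoderm. The endoderm sum was 1424 to 1892 in endoderm and at most 194 in any other library. The 5 visceral endoderm markers were all above 3 counts in every endoderm library, with a sum of 1172 to 2964, against at most 59.9 in the other types. The hematopoietic sum was 2415 to 2861 in hematopoietic mesoderm and at most 1005 elsewhere. Hematopoietic replicate 3 stood apart from replicates 1 and 2. Its hematopoietic sum was still 2415 CPM, against 2654 and 2861, and 7 of the 8 hematopoietic markers were above 3 counts in all 3 libraries. Its cardiac sum was 736 against 146 and 297, with 415 CPM of Hand1 against 47.3 and 81.1. Its Epcam level was 68.6 CPM against 21.4 and 1.04, and Gata1, an erythroid regulator, was at 0.209 CPM against 73.9 and 46.4. For comparisons with hematopoietic mesoderm, the ratio of sums, the medians, the counts of members whose libraries did not overlap and the edgeR calls are therefore given also without that library where it changes them. The 4 epiblast and neural ectoderm markers were all above 3 counts in every endoderm library, with a sum of 479 to 531 CPM, against 66.7 to 271 in the cardiac types and 2.64 to 3.80 in hematopoietic mesoderm, where Sox2 and Pou3f1 were at or below 3 counts in all libraries. The 5 trophoblast markers were all above 3 counts in every library in endoderm alone, but their sum there (311 to 381 CPM) was below that of both cardiac types (616 to 869). That list includes Hand1, which is also among the 8 cardiac markers, so its sum is no measure of trophoblast in the cardiac types. Krt7 was at or below 3 counts in all libraries of both cardiac types, and Elf5 in all YFP-positive ones.

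The replication genes were expressed in every library of every type, at levels that varied little between types. The median member had a mean of 108 CPM, against 24.6 for all genes tested, and 43 of the 45 lay above that median of all tested genes. Between the highest and the lowest type mean, the median member differed 1.49-fold and the median tested gene 2.72-fold. This ratio was under 1.5 for 25 members (55.6%, against 18.8% of tested genes) and under 2 for 35 (77.8%, against 36.8%). The tested genes were not matched to the members for level. In hematopoietic mesoderm 25.3% of their values were at 3 counts or fewer, as no member value was. How much of the difference in ratios goes with level was not tested. In these bulk samples, fewer cycling cells and less of a transcript per cycling cell cannot be told apart.

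Summed over the 45 genes, endoderm was the lowest type and hematopoietic mesoderm the highest. The sum was 6086, 6509 and 6164 CPM in the YFP-positive cardiac libraries, 5883, 5953 and 5794 in the YFP-negative ones, 5318, 5362 and 5250 in endoderm, and 6866, 6026 and 7247 in hematopoietic mesoderm. All 3 endoderm libraries lay below the other 9, under this scaling, under RLE scaling (5346 to 5481 against at least 5768) and with library size alone (5614 to 5718 against at least 5864). Relative to the endoderm mean of 5310 ± 56.5 (SD, n = 3), the sum was 1.18 times as high in YFP-positive cells, 1.11 times in YFP-negative cells and 1.26 times in hematopoietic mesoderm, or 1.21 times without hematopoietic replicate 3, which had the highest sum of all 12. With library size alone these ratios were smaller, at 1.07, 1.07 and 1.12 (1.09 without that replicate), and the cardiac types then stood nearly level. The TMM factors of the endoderm libraries, 1.056 to 1.070, were the highest of the 12. The cardiac markers were also highest in hematopoietic replicate 3 within its type, and the visceral endoderm and the epiblast and neural ectoderm markers were higher in all 3 endoderm libraries than in any other. Their part in the result was not tested.

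**Figure D1:**
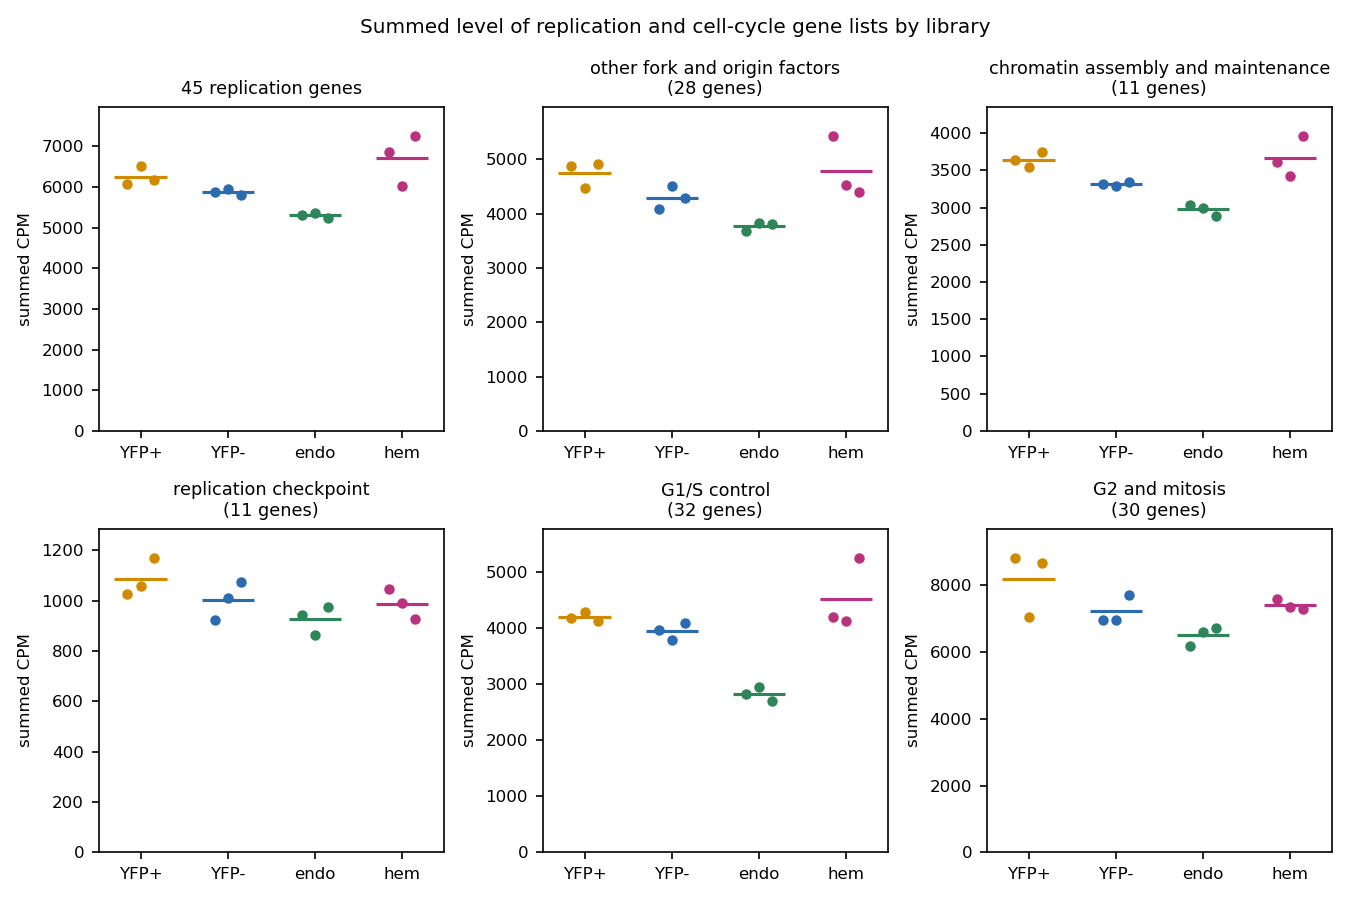
Summed CPM (y axis, from 0) of the 45 replication genes and of 5 further lists in each library, by cell type (x axis), with points for libraries and a line for the mean of 3. For the replication genes the endoderm libraries sit at 5250 to 5362 CPM, below all others.

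Gene by gene, the endoderm mean was the lowest of the 4 for 19 members (24.7% of tested genes), or for 15 (23.1%) without hematopoietic replicate 3, and the highest for 2 (25.6%), Mcm7 and Gins1. Hematopoietic mesoderm was the highest for 20 (30.4% of tested genes) and, without its replicate 3, for 19 (29.2%). The YFP-positive cardiac mean was the highest for 17 (25.6%) and the YFP-negative mean for 6 (18.4%). In 5 members, Cdc45, Orc3, Orc4, Pole and Rrm2, every endoderm library lay below all 9 others, as it did in 2.51% of tested genes. This holds under TMM scaling. With library size alone, Cdc45 and Rrm2 kept it, while endoderm overlapped other types for Orc3, Orc4 and Pole.

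The 6 genes of ORC, the complex that marks origins, were summed to 903, 1140 and 1042 CPM in YFP-positive cells, 812, 902 and 876 in YFP-negative cells, 811, 820 and 761 in endoderm, and 846, 926 and 1027 in hematopoietic mesoderm. Orc6, which joins the complex last and is needed for MCM loading, was at 125, 118 and 171 CPM in YFP-positive cells, 108, 156 and 115 in YFP-negative cells, 143, 108 and 129 in endoderm and 174, 171 and 239.6 in hematopoietic mesoderm. The hematopoietic libraries lay above all the cardiac libraries, and above the endoderm ones. Orc1, the subunit whose protein falls away after S phase in many cells, was at 117, 124 and 103 CPM in YFP-positive cells, 106, 84.6 and 85.7 in YFP-negative cells, 107, 105 and 111 in endoderm and 16.8, 129 and 93.8 in hematopoietic mesoderm. Hematopoietic replicate 1 was far below the other 11 libraries, which spanned 84.6 to 129 CPM. Orc3 and Orc4, core subunits singled out here after their values were seen, both had endoderm below all other types under TMM scaling. With library size alone, endoderm overlapped hematopoietic mesoderm for both. Orc3 was at 230.0, 245 and 204 CPM in endoderm and at 261 or more elsewhere, and Orc4 was at 148, 162 and 127 CPM in endoderm and at 167 or more elsewhere. Orc2 ranged from 86.5 to 245 CPM and Orc5 from 16.2 to 108, each with its highest library among the YFP-positive cells. In Orc2, 29.8% of the exon bases also lie in exons of Nif3l1, so its count is uncertain.

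The licensing factors follow, with the loader first. Cdc6, the loader of MCM2-7, was at 80.1, 119 and 83.2 CPM in YFP-positive cells, 149, 123 and 121 in YFP-negative cells, 110.2, 93.7 and 79.8 in endoderm and 179, 170.2 and 126 in hematopoietic mesoderm. The YFP-negative and the hematopoietic libraries lay above both the YFP-positive and the endoderm ones. Cdt1, which brings MCM2-7 to ORC, was at 97.5, 54.5 and 131 CPM in YFP-positive cells, 46.1, 69.1 and 54.4 in YFP-negative cells, 50.7, 40.1 and 50.1 in endoderm and 94.4, 56.1 and 93.1 in hematopoietic mesoderm. The endoderm libraries lay below the YFP-positive and the hematopoietic ones and overlapped the YFP-negative ones. Gmnn, the inhibitor of CDT1, was at 75.1, 21.6 and 84.3 CPM in YFP-positive cells, 91.8, 74.0 and 69.3 in YFP-negative cells, 65.1, 54.2 and 76.2 in endoderm and 86.0, 44.5 and 107 in hematopoietic mesoderm. Here all 4 types overlapped. The ratio of Cdt1 to Gmnn counts, computed after these values were seen, was 1.30, 2.52 and 1.56 in YFP-positive cells, 0.502, 0.934 and 0.785 in YFP-negative cells, 0.779, 0.740 and 0.658 in endoderm, and 1.10, 1.26 and 0.867 in hematopoietic mesoderm. The YFP-positive libraries were the highest 3 of the 12, and the largest ratio came from the library with the lowest Gmnn.

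The 6 genes of the MCM2-7 helicase were among the steadiest members. Summed, they came to 1367, 1395 and 1502 CPM in YFP-positive cells, 1413, 1307 and 1366 in YFP-negative cells, 1231, 1226 and 1189 in endoderm, and 1425, 1383 and 1723 in hematopoietic mesoderm. The endoderm sum lay below all other libraries, and the highest sum was that of hematopoietic replicate 3. Mcm2 was at 284, 192 and 269 CPM in YFP-positive cells, 222, 186 and 215 in YFP-negative cells, 207, 204 and 192 in endoderm and 204, 253 and 437 in hematopoietic mesoderm. Mcm4 was at 323, 295 and 365 CPM in YFP-positive cells, 405, 336 and 338 in YFP-negative cells, 292, 299 and 272 in endoderm and 311, 359 and 525 in hematopoietic mesoderm. Both were highest in hematopoietic replicate 3, and for Mcm4 the endoderm libraries lay below the YFP-negative and the hematopoietic ones. Mcm6 was at 321, 324 and 307 CPM in YFP-positive cells, 259, 263 and 273 in YFP-negative cells, 254, 246 and 241 in endoderm and 389, 287 and 243 in hematopoietic mesoderm. Here the YFP-positive libraries lay above the YFP-negative ones, and these above endoderm, while the hematopoietic libraries overlapped all of them.

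Mcm3 was at 145, 262 and 203 CPM in YFP-positive cells, 219, 270.2 and 199.6 in YFP-negative cells, 179, 177 and 203 in endoderm and 144, 194 and 251 in hematopoietic mesoderm. Mcm5 was at 184, 214 and 249 CPM in YFP-positive cells, 192, 154 and 215 in YFP-negative cells, 169, 182 and 162 in endoderm and 263, 185 and 127 in hematopoietic mesoderm. For Mcm3 all types overlapped, and for Mcm5 the YFP-positive libraries were above the endoderm ones, with no other pair apart. Mcm7 was at 109.7, 108 and 109 CPM in YFP-positive cells, 117, 98.7 and 125 in YFP-negative cells, 131, 118 and 119 in endoderm and 115, 104 and 139 in hematopoietic mesoderm. It had the narrowest range of all 45 members, 1.41-fold from the lowest to the highest library, and it was the helicase gene in which endoderm had the highest mean. Mcm7 also holds sequence found elsewhere: 12.6% of its exon bases lie in exons of other genes and 23.3% of its 50-base words occur in other transcripts, chiefly those of Gm5487.

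Reference promoters from RefSeq (GRCm38.p6; 250 bases before to 50 after each start) were found for 36 of the 45 genes. An E2F motif, searched as TTTCGCGC, TTTGGCGC, TTTCCCGC or TTTGCCGC on both strands with overlapping matches allowed, was present in 13 of the 36 (36.1%), against 704 of 27025 genes with a promoter (2.61%). The 13 were Mcm3, Mcm5, Mcm6, Mcm7, Orc1, Orc3, Cdc6, Cdt1, Gins3, Pola1, Pold1, Rfc3 and Lig1. The 27025 genes were not limited to expressed genes or matched to the members for base composition. The CCAAT box, bound by NF-Y, was in 61.1% of the members and 41.1% of all genes, and the CHR element (TTTGAA or TTCGAA), found in many G2 genes, in 22.2% and 21.7%. The next lines show 100 bases of 3 of these promoters, chosen because each holds an E2F motif before the start and no annotated exon. They are written 5′ to 3′ on the strand of the gene, with the E2F letters in capitals, and a match is a description of these letters and not a measured site.
Mcm6, chr1:128359725-128359824, minus strand: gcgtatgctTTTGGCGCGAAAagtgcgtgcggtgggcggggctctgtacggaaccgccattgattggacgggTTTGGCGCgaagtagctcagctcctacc
Mcm5, chr8:75109288-75109387, plus strand: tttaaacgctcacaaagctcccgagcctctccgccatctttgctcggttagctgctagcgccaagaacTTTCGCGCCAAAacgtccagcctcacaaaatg
Pola1, chrX:93632266-93632365, minus strand: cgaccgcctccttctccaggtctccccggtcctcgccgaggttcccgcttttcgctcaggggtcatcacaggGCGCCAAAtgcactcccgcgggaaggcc
The Mcm6 window holds 2 separate stretches, the first made of 2 overlapping motifs on opposite strands, and the Mcm5 window holds a stretch of the same kind. For Mcm6, Mcm5 and Pola1, with the E2F motifs shown above, the endoderm mean was the lowest of the 4 types, and the ratios of the highest to the lowest type mean were 1.29, 1.26 and 1.67. Mcm7, which also holds an E2F motif, had its highest mean in endoderm. Of the others with a motif, endoderm was the lowest for Mcm3, Orc3, Cdt1, Rfc3 and Lig1. It was not the lowest for Orc1, Cdc6, Gins3 and Pold1. Cdc45, Rrm2 and Orc4, also lowest in endoderm, held no E2F motif. A link between motif and level was not tested.

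Among the factors that turn the loaded helicase on, Cdc45 stood low in endoderm. Cdc45, the helicase subunit that joins MCM2-7 when an origin fires (chr16:18780447-18811987, minus strand, GRCm38), was at 87.7, 83.0 and 94.6 CPM in YFP-positive cells, 84.0, 118 and 85.5 in YFP-negative cells, 44.2, 44.4 and 39.9 in endoderm and 138, 95.8 and 104 in hematopoietic mesoderm. All endoderm libraries lay below 45 CPM and all others at or above 83.0 CPM. It was the member called by edgeR's quasi-likelihood test in endoderm against hematopoietic mesoderm, with a log2 difference of -1.39, where 5.65% of tested genes were called. As that contrast is among those the list was chosen with, the call is a description. It was also made without hematopoietic replicate 3 and was not made when any endoderm library or hematopoietic replicate 1 was left out, or with no filter on low counts. Mcm10, which stabilises the firing helicase, was at 221, 187 and 178 CPM in YFP-positive cells, 139, 156 and 144 in YFP-negative cells, 122, 157 and 117 in endoderm and 57.1, 154 and 225 in hematopoietic mesoderm. The YFP-positive libraries lay above those of YFP-negative cells and endoderm, and the hematopoietic libraries spanned the lowest and the highest values.

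The GINS complex is the other partner of the active helicase. Gins2 was at 52.1, 50.5 and 34.9 CPM in YFP-positive cells, 63.0, 75.8 and 65.2 in YFP-negative cells, 82.9, 65.4 and 60.3 in endoderm and 114, 67.5 and 124 in hematopoietic mesoderm. The YFP-positive libraries lay below those of all other types. This count is uncertain, since 67.3% of the exon bases of Gins2 also lie in exons of Gse1. Gins4 ranged from 38.0 to 149 CPM, with both its lowest and highest library in hematopoietic mesoderm. Gins1 and Gins3 were low and uneven, and are taken up with the spread between replicates.

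The kinase pair CDC7 and DBF4 starts origin firing. Its activator Dbf4, singled out after its values were seen, was at 93.1, 129.7 and 43.5 CPM in YFP-positive cells, 127, 141 and 102 in YFP-negative cells, 120.5, 123 and 120.5 in endoderm and 338, 136 and 278 in hematopoietic mesoderm. The hematopoietic libraries lay above those of YFP-positive cells and endoderm, 2 of them by a wide margin, and replicate 2 fell among the YFP-negative ones. Cdc7 ranged from 37.1 to 155 CPM and was even in endoderm, at 91.8, 85.2 and 93.2 CPM. Ccne1, a cyclin of the G1/S kinase CDK2, was at 63.1, 117 and 78.9 CPM in YFP-positive cells, 90.7, 76.9 and 88.2 in YFP-negative cells, 56.4, 54.4 and 111 in endoderm and 46.1, 65.8 and 211 in hematopoietic mesoderm. Its highest value was that of hematopoietic replicate 3, and all 4 types overlapped. Ccne2, the second cyclin E gene, was at 49.6, 86.3 and 52.0 CPM in YFP-positive cells, 48.8, 65.4 and 57.0 in YFP-negative cells, 71.2, 54.7 and 55.3 in endoderm and 54.5, 69.2 and 37.3 in hematopoietic mesoderm. These groups overlapped as well, and 17.4% of its exon bases lie in exons of Ints8.

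**Figure D2:**
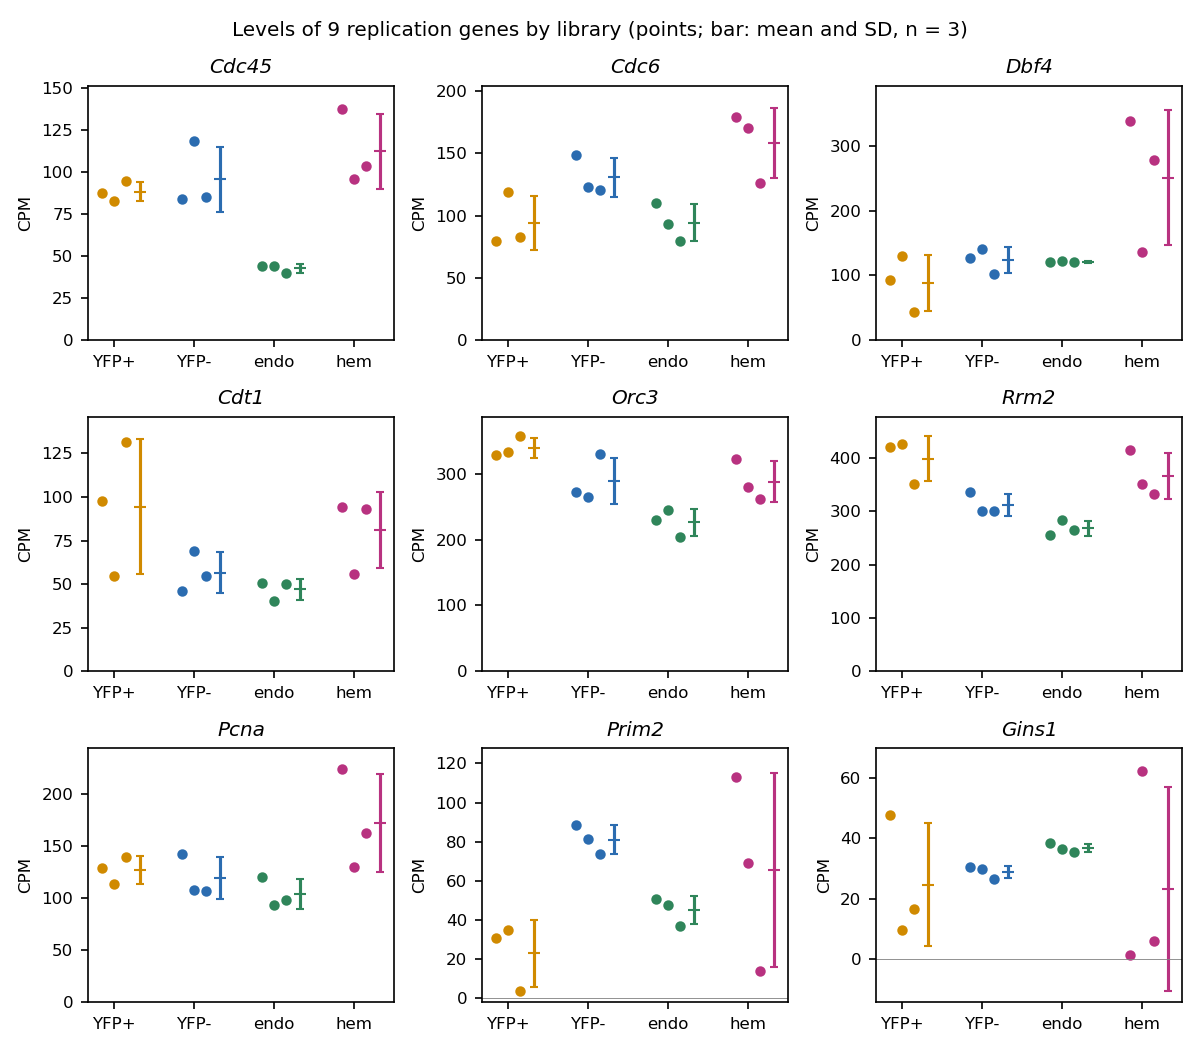
CPM (y axis, from 0 or just below it) of 9 replication genes in each library (points) by cell type (x axis), with the mean and SD of 3 libraries beside them. Cdc45 in endoderm lies at 39.9 to 44.4 CPM, below all other libraries, while Prim2 and Gins1 scatter widely within the YFP-positive and hematopoietic types.

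The 6 polymerase and primase genes were summed to 681, 815 and 777 CPM in YFP-positive cells, 718, 704 and 826 in YFP-negative cells, 632, 616 and 639 in endoderm, and 971, 741 and 965 in hematopoietic mesoderm. Endoderm was again the lowest type, with no overlap under TMM scaling, though with library size alone it overlaps the YFP-positive libraries. Pola1, the catalytic subunit of polymerase alpha, was at 134, 236 and 190.3 CPM in YFP-positive cells, 173, 140.3 and 222 in YFP-negative cells, 133, 145 and 191 in endoderm and 300.3, 164 and 321 in hematopoietic mesoderm. Prim1, the catalytic primase subunit, was at 164, 121 and 151 CPM in YFP-positive cells, 93.5, 132 and 139 in YFP-negative cells, 134, 127 and 104 in endoderm and 158, 131 and 105 in hematopoietic mesoderm. For both genes all types overlapped. Pole, the catalytic subunit of the leading-strand polymerase epsilon, was at 233, 291 and 299.9 CPM in YFP-positive cells, 262, 276 and 302 in YFP-negative cells, 200.3, 197 and 215 in endoderm and 229, 228 and 434 in hematopoietic mesoderm. Its endoderm libraries lay below all others under TMM scaling but not with library size alone, and hematopoietic replicate 3 was the highest. Pold1, the catalytic subunit of the lagging-strand polymerase delta, was at 79.0, 22.7 and 64.2 CPM in YFP-positive cells, 64.8, 61.2 and 59.0 in YFP-negative cells, 68.0, 49.2 and 44.7 in endoderm and 50.9, 27.4 and 44.996 in hematopoietic mesoderm. The hematopoietic libraries lay below the YFP-negative ones, and YFP-positive replicate 2 was the lowest of all.

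Pola2 and Prim2, the accessory subunits of polymerase alpha and primase, varied more and were singled out after their values were seen. Pola2 was at 40.7, 109 and 68.1 CPM in YFP-positive cells, 36.4, 13.8 and 30.7 in YFP-negative cells, 46.6, 51.0 and 47.1 in endoderm and 120.3, 121 and 44.996 in hematopoietic mesoderm. Prim2 was at 30.7, 34.7 and 3.32 CPM in YFP-positive cells, 88.3, 81.3 and 73.5 in YFP-negative cells, 50.4, 47.5 and 37.1 in endoderm and 113, 69.2 and 14.0 in hematopoietic mesoderm. The 2 genes ran opposite ways between the cardiac types: YFP-positive libraries were above the YFP-negative ones for Pola2 and below them for Prim2, with log2 differences of 1.43 and -1.82, the highest and the lowest of the 45. Neither gene was called by edgeR in that pair.

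PCNA, the ring that holds polymerases on DNA, and the 5 genes of replication factor C, which loads it, were summed to 436 to 683 CPM. Pcna was at 129, 114 and 140.0 CPM in YFP-positive cells, 142, 108 and 107 in YFP-negative cells, 120.1, 93.3 and 98.1 in endoderm and 224, 130.3 and 163 in hematopoietic mesoderm. The hematopoietic libraries lay above the endoderm ones. In Pcna, 19.1% of the 50-base words are shared with the pseudogene Pcna-ps2, so part of its reads may not have been assigned. Rfc3, a small subunit of the loader, was at 61.4, 61.6 and 38.5 CPM in YFP-positive cells, 53.8, 53.3 and 15.7 in YFP-negative cells, 34.1, 38.8 and 34.1 in endoderm and 109, 55.9 and 29.9 in hematopoietic mesoderm. All types overlapped, and endoderm had the closest libraries. Rfc1, the large subunit, ranged from 200.2 to 342 CPM without separation of the types. Rfc2, Rfc4 and Rfc5 ranged from 4.08 to 60.6, from 12.9 to 103 and from 12.4 to 148 CPM, with Rfc2 lower in all hematopoietic libraries than in any YFP-positive or endoderm library. Exons of Lat2 hold 15.1% of the exon bases of Rfc2.

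Single-strand binding and strand joining were represented by 4 genes. Lig1, the ligase that seals Okazaki fragments, was at 275, 272 and 325 CPM in YFP-positive cells, 266, 300.5 and 309 in YFP-negative cells, 233, 252 and 235 in endoderm and 201, 244 and 297 in hematopoietic mesoderm. Both cardiac types lay above endoderm, and the hematopoietic libraries overlapped all others. Fen1, the nuclease that trims the flaps before ligation, was at 5.39, 2.18 and 2.95 CPM in YFP-positive cells, 1.67, 2.23 and 1.01 in YFP-negative cells, 0.634, 2.06 and 2.25 in endoderm and 2.40, 3.11 and 1.05 in hematopoietic mesoderm. It was the lowest of the 45, but exons of Gm10143 and Tmem258 cover 84.2% of its exon bases, and reads that fit more than 1 gene were left out of the counts, so its true level is not given by these files. Rpa1 and Rpa2, subunits of the single-strand binding protein RPA, ranged from 30.8 to 227 and from 48.0 to 142 CPM.

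The genes of nucleotide supply were among the most strongly expressed members. Rrm2, the small subunit of ribonucleotide reductase, which makes deoxynucleotides and is made anew in each S phase, was at 419, 426 and 351 CPM in YFP-positive cells, 336, 300.1 and 301 in YFP-negative cells, 256, 283 and 264 in endoderm and 415, 352 and 333 in hematopoietic mesoderm. The endoderm libraries lay below all others, and the YFP-positive ones above the YFP-negative ones. Rrm1, the large subunit, was at 318, 317 and 384 CPM in YFP-positive cells, 296, 372 and 298 in YFP-negative cells, 246, 270.2 and 269.6 in endoderm and 475, 235 and 235 in hematopoietic mesoderm. Both cardiac types lay above endoderm, and hematopoietic replicate 1 was the highest of all while replicates 2 and 3 were the lowest. Tyms, thymidylate synthase, was at 201, 164 and 58.1 CPM in YFP-positive cells, 162, 168 and 155 in YFP-negative cells, 159, 159 and 164 in endoderm and 208, 159 and 138 in hematopoietic mesoderm. All types overlapped, and YFP-positive replicate 3 was the lowest library. Chaf1a, the large subunit of the chaperone that puts histones on new DNA, was at 68.4, 54.3 and 52.9 CPM in YFP-positive cells, 79.7, 87.8 and 76.1 in YFP-negative cells, 58.0, 68.9 and 63.6 in endoderm and 54.5, 57.8 and 51.1 in hematopoietic mesoderm. The YFP-negative libraries lay above all others, and 52.5% of the exon bases of Chaf1a lie in exons of Ubxn6.

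Levels can be compared between genes once divided by exon length. In CPM per kb, averaged over the 12 libraries, Rrm2 was the highest member at 121, followed by Mcm4 at 95.6, Gins4 at 66.9 and Lig1 at 62.6, and Fen1 was the lowest at 0.927. Subunits of a complex were not at equal levels. In MCM2-7 the highest was Mcm4 and the lowest Mcm7 at 26.2, a ratio of 3.65, and these were the highest and the lowest subunit in all 12 libraries. In ribonucleotide reductase Rrm2 exceeded Rrm1, at 28.1, by 4.32-fold, again in all 12. That gap goes with the exon lengths used, 11012 bases for Rrm1 and 2771 for Rrm2. In CPM, not divided by length, their means were 310 and 336, and Rrm1 exceeded Rrm2 in some libraries. In ORC the ends were Orc6 at 59.3 and Orc5 at 8.01, in GINS Gins4 at 66.9 and Gins3 at 8.95, in replication factor C Rfc1 at 43.2 and Rfc2 at 5.89, and in polymerase alpha-primase Prim1 at 33.6 and Pola2 at 7.33. In those 4 complexes the same gene was the highest in 8 to 11 of the 12 libraries. Exon lengths are those of all annotated isoforms together, so a long isoform that is not used lowers a gene's value.

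**Figure D3:**
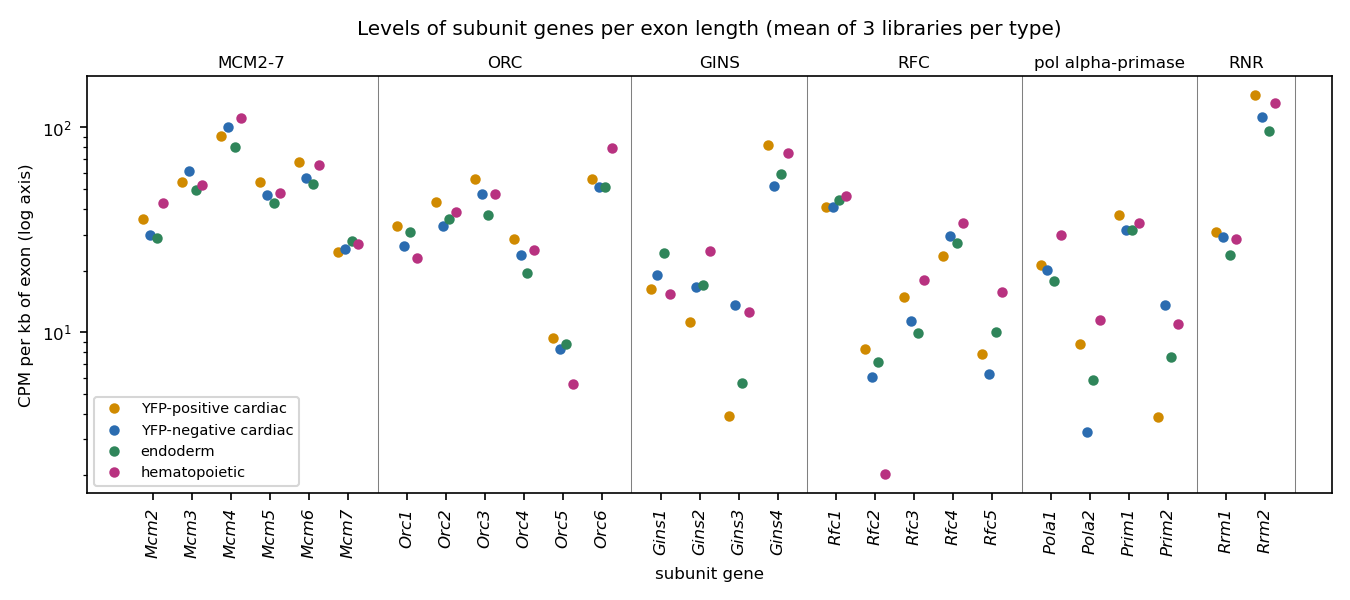
Mean CPM per kb of exon in each cell type (log y axis, mean of 3 libraries) for the subunit genes (x axis) of 6 replication complexes. Rrm2 and Mcm4 stand highest, and in MCM2-7 and ribonucleotide reductase the points of the 4 types lie close together for each gene.

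Replicates were closest in endoderm and furthest apart in hematopoietic mesoderm. The median coefficient of variation of the members was 8.11% in endoderm, 14.7% in YFP-negative cells, 24.6% in YFP-positive cells and 33.4% in hematopoietic mesoderm. For all tested genes these medians were 24.1%, 42.4%, 64.5% and 77.6%, in the same order of types. Tested genes were not matched to the members for level. The share of tested gene values at 3 counts or fewer rose in that order too, at 3.86%, 12.1%, 19.4% and 25.3%. Genes with a count numbered 18547 to 18618 in the endoderm libraries and 12484 to 14491 in the hematopoietic ones. The part of detection in the spread was not tested. A range of at least 5-fold between the 3 libraries of a type was seen for 0 members in endoderm (12.2% of tested genes) and 0 in YFP-negative cells (31.1%). It was seen for 3 in YFP-positive cells (6.67% of members, 45.4% of tested genes). In hematopoietic mesoderm it was seen for 8 (17.8% of members, 53% of tested genes), or for 5 members between replicates 1 and 2. The widest of these were singled out after their values were seen. Gins1 was at 1.44, 62.3 and 6.07 CPM in hematopoietic mesoderm and 47.7, 9.63 and 16.8 in YFP-positive cells, but at 30.4, 29.7 and 26.7 in YFP-negative cells and 38.4, 36.4 and 35.6 in endoderm. Gins3 was at 83.1, 7.59 and 11.7 CPM in hematopoietic mesoderm and 2.28, 28.5 and 0.738 in YFP-positive cells, against 47.1, 19.3 and 44.6 in YFP-negative cells and 8.24, 23.2 and 14.6 in endoderm. Different libraries were high for the 2 genes, hematopoietic replicate 2 for Gins1 and replicate 1 for Gins3.

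Over all 12 libraries, 11 members stayed within a 2-fold range and 13 spanned at least 5-fold, up to 113-fold for Gins3. The share of all tested genes with such ranges is not given here. Wide ranges were more common among the lower genes: the Spearman correlation between mean CPM and range was -0.76 across the 45 members, which share the same 12 libraries, and all 10 members above 200 CPM stayed within 2.36-fold. The order was not strict, since Dbf4, with a mean of 146 CPM, spanned 7.76-fold, and Chaf1a, with a mean of 64.4 CPM, less than 2-fold. The members did not rise and fall together within types. The mean pairwise correlation of their deviations from the type means was -0.00337, against 0.00503 for all tested genes, as a description over 12 libraries. Hematopoietic replicates 1 and 3 each held the highest value of 13 members, and replicate 1 the lowest of 8.

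**Figure D4:**
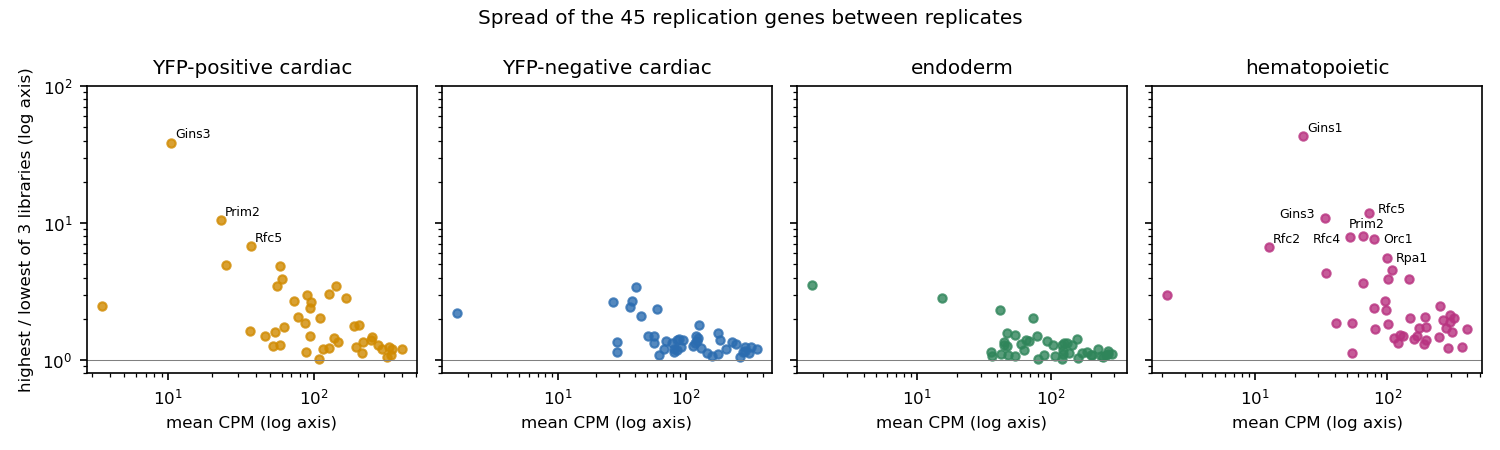
Ratio of the highest to the lowest of 3 libraries (log y axis) against mean CPM (log x axis) for each of the 45 genes in each cell type, with names for ratios of at least 5. Endoderm and YFP-negative cells have no such gene, and the named genes in YFP-positive and hematopoietic cells are mostly those with low means.

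Between the cardiac types, which differ in their history of Foxa2 expression, edgeR's quasi-likelihood test called 0 of the 45 members, where 0% of tested genes were called at an adjusted p under 0.05. At an unadjusted p under 0.05 there were 3 members (7.49% of tested genes), and DESeq2 called 0 (1.57%). The median log2 difference of the members, YFP-positive minus YFP-negative, was 0.10, against 0.03 for all tested genes, and 41 members lay within 2-fold. In 9 members the libraries of the types did not overlap, against 12.1% of tested genes: 5 were higher in YFP-positive cells (5.04%), Mcm6, Mcm10, Orc4, Pola2 and Rrm2, and 4 lower (7.04%), Cdc6, Gins2, Prim2 and Chaf1a. For a comparison of 3 against 3, the smallest two-sided exact permutation p is 0.1.

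Against endoderm, the members leaned towards higher levels in both cardiac types. For YFP-positive cells the median log2 difference was 0.22, against 0.01 for all tested genes, with 31 members higher and 14 lower. Without endoderm replicate 2 that median was 0.083. edgeR called 0 members (1.54% of tested genes; 5 members and 15.8% at an unadjusted p under 0.05), and DESeq2 called 4, Cdc45, Rrm2, Orc4 and Orc3, where it called 8.1% of genes. With these 2 types fitted alone, edgeR called 2, Rrm2 and Orc3, and 8.28% of genes. Libraries did not overlap for 14 members (30.3% of tested genes), of which 11 were higher in YFP-positive cells (10.9%) and 3 lower (19.3%). For YFP-negative cells the median was 0.13, against 0.01, with 28 members higher and 17 lower, and without endoderm replicate 3 it was 0.070. edgeR called 0 (1.31%; 2 members and 10.3% unadjusted), and DESeq2 called 1, Cdc45 (5.32%). With the 2 types alone, edgeR called 2, Cdc45 and Pole (10.1%). Libraries did not overlap for 16 members (29.4%), 12 of them higher in YFP-negative cells (12.2%) and 4 lower (17.2%). Both comparisons share the endoderm libraries.

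Against hematopoietic mesoderm, the members split evenly in YFP-positive cells and leaned lower in YFP-negative cells. For YFP-positive cells 22 members were higher and 23 lower. The median log2 difference was -0.11, against 0.03 for all tested genes, and without hematopoietic replicate 3 it was -0.0038. edgeR called 0 members (1.79%; 4 members and 19.5% unadjusted), and DESeq2 called 4, Dbf4, Cdc6, Rfc2 and Gins2 (12.8%). Without hematopoietic replicate 2, edgeR called 2, Dbf4 and Rfc2, and 2.71% of genes; with no filter on low counts it called Dbf4 (1.3%). Libraries did not overlap for 7 members (14%), with Orc3 and Rfc2 higher in YFP-positive cells (8.12%) and 5 lower (5.86%), Cdc45, Cdc6, Dbf4, Gins2 and Orc6. With hematopoietic replicates 1 and 2 alone, 6 were higher (13.2%) and 7 lower (11.3%). For YFP-negative cells the median was -0.18, against 0.02, with 31 members lower and 14 higher, and without hematopoietic replicate 3 it was -0.16. edgeR called 0 (0.593%; 4 members and 17.4% unadjusted), DESeq2 called 2, Chaf1a and Pola2 (9.29%), and libraries did not overlap for 4 members (18.6%), with Pold1 and Chaf1a higher in YFP-negative cells (11.8%) and Orc6 and Pola2 lower (6.87%). With hematopoietic replicates 1 and 2 alone, 6 were higher (18.6%) and 7 lower (13.1%).

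Endoderm and hematopoietic mesoderm were the furthest apart. The median log2 difference of the members, endoderm minus hematopoietic, was -0.33, against 0.07 for all tested genes, and 36 members were lower in endoderm and 9 higher. It was -0.22 without hematopoietic replicate 3 and -0.43 without replicate 2. edgeR called Cdc45 (5.65%; 12 members and 22.8% unadjusted), and DESeq2 called 5, Cdc45, Cdc6, Rrm2, Rfc2 and Pcna (15.4%). Without hematopoietic replicate 2, edgeR called 3, Cdc45, Dbf4 and Rfc2 (6.67% of the members), and 6.41% of all genes. Without replicate 3 it called Cdc45 (4.28%), as it did with the 2 types alone (9.89%). Libraries did not overlap for 13 members (34.3% of tested genes). Endoderm libraries lay below all hematopoietic ones for 11 of these (10.9%) and above them for 2, Rfc2 and Chaf1a (23.4%). With hematopoietic replicates 1 and 2 alone, these counts were 17 (17.9%) and 4 (31.5%).

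The other genes of replication and the cell cycle were described from 6 lists that hold 126 genes, of which 122 were tested. None of these genes is a member. At an adjusted p under 0.05, edgeR called 0 of the 122 between the cardiac types (9 at an unadjusted p under 0.05; 0 by DESeq2), 3 in YFP-positive cells against endoderm (9 by DESeq2), 3 in YFP-negative cells against endoderm (4), 1 in YFP-positive cells against hematopoietic mesoderm (8), 0 in YFP-negative cells against hematopoietic mesoderm (15 unadjusted; 5 by DESeq2) and 11 in endoderm against hematopoietic mesoderm (22). Over all tested genes, edgeR called 0%, 1.54%, 1.31%, 1.79%, 0.593% and 5.65% in these pairs, in the same order. DESeq2 called 1.57%, 8.1%, 5.32%, 12.8%, 9.29% and 15.4%. The 2 unadjusted shares over all tested genes were 7.49% and 17.4%.

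The clearest differences lay in G1/S control, where 29 of 32 listed genes were tested. Ccnd2, the D-type cyclin that opens the way from G1 into S phase, was at 551, 601 and 526 CPM in YFP-positive cells, 581, 552 and 695 in YFP-negative cells, 86.1, 115 and 81.7 in endoderm and 663, 528 and 499.6 in hematopoietic mesoderm. No endoderm library came near the others. Ccnd2 was higher than in endoderm by 2.57 ± 0.18 (log2 ± SE) in YFP-positive cells, by 2.69 ± 0.18 in YFP-negative cells and, in the opposite order of subtraction, by -2.58 ± 0.18 for endoderm minus hematopoietic mesoderm. The adjusted p in edgeR was 6.7e-06, 4.7e-06 and 6.4e-06 for these pairs, and over all 12 alternatives of each it stayed at or below 0.0022.

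Cdk6, a kinase partner of the D cyclins, was at 229, 256 and 131 CPM in YFP-positive cells, 131, 149 and 169 in YFP-negative cells, 67.2, 48.6 and 53.3 in endoderm and 149.6, 164 and 156 in hematopoietic mesoderm. It was lower in endoderm in all 3 pairs, by a log2 difference of 1.86 ± 0.28 for YFP-positive minus endoderm (edgeR adjusted p = 0.0043; 7.2e-09 to 0.042 over 12 alternatives). For YFP-negative minus endoderm it was 1.41 ± 0.28 (edgeR adjusted p = 0.023; up to 0.16, lost with any library of the pair left out and in the fit with a replicate block), and for endoderm minus hematopoietic mesoderm -1.47 ± 0.28 (edgeR adjusted p = 0.010; up to 0.078, lost without endoderm replicate 2 or 3). Myc, a transcription factor that promotes growth and entry into S phase, was at 320.2, 188 and 260.0 CPM in YFP-positive cells, 285, 239 and 289 in YFP-negative cells, 105, 151 and 130.2 in endoderm and 475, 375 and 495 in hematopoietic mesoderm. The endoderm libraries were the lowest and the hematopoietic ones the highest, without overlap. For endoderm minus hematopoietic mesoderm the log2 difference of Myc was -1.80 ± 0.22 (edgeR adjusted p = 0.00077; up to 0.0092 over 12 alternatives). Against the cardiac types it was 0.99 ± 0.22 for YFP-positive minus endoderm (edgeR adjusted p = 0.039; up to 0.22) and 1.07 ± 0.22 for YFP-negative minus endoderm (edgeR adjusted p = 0.026; up to 0.18), and each of these calls was lost under 7 of the 12 alternatives.

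In endoderm against hematopoietic mesoderm, 7 further genes were lower in endoderm and 1 higher. Among the other fork and origin factors, 2 of 28 fell in endoderm: Top1, the topoisomerase that relaxes DNA ahead of forks, with a log2 difference of -0.89 ± 0.14 (edgeR adjusted p = 0.0048; up to 0.041 over 12 alternatives), and Top2a, the topoisomerase of dividing cells, with -0.46 ± 0.12 (edgeR adjusted p = 0.037; up to 0.16, and 0.082 without hematopoietic replicate 3). In the nucleotide supply list, 2 of the 13 tested were lower and 1 higher. Shmt2, a mitochondrial enzyme of serine and folate metabolism, was at 104, 98.4 and 114 CPM in endoderm and 208, 258 and 298 in hematopoietic mesoderm (log2 difference -1.27 ± 0.21, edgeR adjusted p = 0.0050, up to 0.046). Dctd, which makes the precursor of thymidylate, had -0.95 ± 0.26 (edgeR adjusted p = 0.047; up to 0.17, and 0.090 without hematopoietic replicate 3). Samhd1, an enzyme that breaks deoxynucleotides down, was at 231, 288 and 284 CPM in endoderm and 115, 167 and 127 in hematopoietic mesoderm (log2 difference 0.97 ± 0.23, edgeR adjusted p = 0.029, up to 0.11, and 0.059 without hematopoietic replicate 3).

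The remaining calls in that pair were Uhrf1, which keeps DNA methylation on new strands (-0.82 ± 0.21, edgeR adjusted p = 0.044, up to 0.17, and 0.11 without hematopoietic replicate 3), Skp2, which marks CDK inhibitors for destruction (-0.61 ± 0.16, edgeR adjusted p = 0.044, up to 0.18), and Tpx2, a spindle factor (-0.67 ± 0.14, edgeR adjusted p = 0.019, up to 0.11). Each of the 3 lost its call when any endoderm library was left out. No gene of the replication checkpoint list was called in any pair by edgeR (at most 1 of 11 at an unadjusted p under 0.05 in any pair), and DESeq2 called Tipin in YFP-positive cells against hematopoietic mesoderm and Atrip in endoderm against it. Cdc25b, a phosphatase of mitotic entry, was the call in YFP-positive cells against hematopoietic mesoderm. It was at 7.26, 14.0 and 23.1 CPM in YFP-positive cells and at most 0.24 in the hematopoietic libraries, which is under 3 counts, and its call (edgeR adjusted p = 0.046) was lost under 9 of 12 alternatives, where it reached 0.22 (0.057 without hematopoietic replicate 3).

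As medians of the lists, the differences of endoderm minus hematopoietic mesoderm were -0.38 for nucleotide supply, -0.33 for G1/S control, -0.28 for chromatin assembly, -0.14 for G2 and mitosis, -0.01 for the other fork and origin factors and 0.01 for the checkpoint, beside -0.33 for the 45 members and 0.07 for all tested genes. Summed over the 30 genes of G2 and mitosis, YFP-positive cells were at 8822, 7060.0 and 8672 CPM, YFP-negative cells at 6977, 6976 and 7716, endoderm at 6195, 6596 and 6730.0, and hematopoietic mesoderm at 7594, 7359 and 7287. Under TMM scaling the endoderm sums were the lowest here too, but with library size alone the endoderm libraries overlap those of other types. For G1/S control the 3 endoderm libraries lay at 2697 to 2942 CPM and all others at 3793 or above.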

How the data were processed

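RNA-seq counts from 12 libraries, 3 for each of 4 sorted cell types, were analysed. The deposited values are raw counts of reads per Ensembl gene, which the authors had not normalized. STAR 2.5.0a, Picard, HTSeq 0.6.0, DESeq2 and build mm10 are named in the submitters' processing notes. Strand setting and annotation are not given in the sources used here. The summary categories of the files (reads in no gene, in more than 1 gene or at more than 1 place) took 78.5% to 81.7% of tallied reads and were left out of library sizes and tests. Genes with overlapping exons or near-identical copies are therefore undercounted.

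Counts were fitted with edgeR 4.0.16 in R 4.3.3: filterByExpr, TMM scaling, and the quasi-likelihood test on all 12 libraries with 1 coefficient per type, which left 8 residual degrees of freedom. The 6 pairs were tested two-sided, with Benjamini-Hochberg adjustment over 14170 genes at 0.05. SEs come from the log2 difference and the F statistic. Per-kb values use exon lengths of the GENCODE M21 annotation (GRCm38). The script was tested on simulated data. Groups and replicate numbers come from the sample titles.

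The members and the 6 further gene lists were chosen with earlier results of these data known. Complete library values are given for a set list of 28 members and for any other member called by edgeR, and up to 4 called genes per further list and pair; other genes named were chosen after their values were seen. Alternatives were RLE scaling, no filter, a minimum mean of 5 CPM, a replicate block, DESeq2 1.42.0, the 2 compared types alone, and leaving out each library. Those for the further lists, and the counts of members without hematopoietic replicate 3, were added after seeing the data.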

Additional observations from a re-analysis of the deposited data

How the results depend on the processing

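Depth limited the lowest genes: at the depth of the smallest library, 2 members (Gins3 and Fen1) would have 3 counts or fewer in a library. No median member difference and no called gene turned its direction under any alternative. Single members with very small differences did, so the counts of members higher and lower shift with the method. For YFP-positive cells minus endoderm, Pold1 went from 0.036 in edgeR to -0.015 in DESeq2, and Rpa1 from 0.031 to -0.0096. With DESeq2, the members called were 4, 1, 4, 2 and 5 in YFP-positive cells against endoderm, YFP-negative cells against endoderm, YFP-positive cells against hematopoietic mesoderm, YFP-negative cells against hematopoietic mesoderm, and endoderm against hematopoietic mesoderm. In these pairs it called 8.1%, 5.32%, 12.8%, 9.29% and 15.4% of all genes. With the 2 compared types alone, 2 members (4.44%) were called in YFP-positive cells against endoderm (8.28% of all genes) and 2 in YFP-negative cells against endoderm (10.1%). With no filter, 1 member (Dbf4) was called in YFP-positive cells against hematopoietic mesoderm (1.3% of all genes), and 0 in endoderm against hematopoietic mesoderm (2.85%). The member sum was 6024 CPM in YFP-negative cells and 5650.4 in endoderm with library size alone, and 5427 in endoderm with RLE scaling. The median member log2 difference of YFP-positive cells minus endoderm was 0.18 with RLE scaling, with a replicate block and with DESeq2.

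The replicate numbers are shared by all types, as is a date in the names of same-numbered files, whose meaning is not stated. Deviations of same-numbered libraries from their type means correlated at -0.018 to 0.032 over all tested genes, never above 0.1, so the numbers were not taken as pairs. With the replicate block, the members called stayed at 0 in 5 pairs and 1 in endoderm against hematopoietic mesoderm, and the median of YFP-negative cells minus hematopoietic mesoderm was -0.080. In the fit with the replicate block, the further lists had 1 call in YFP-negative cells against endoderm (1.01% of all genes) and 0 in YFP-positive cells against hematopoietic mesoderm (0.939%). That fit called 3.85% of all genes in endoderm against hematopoietic mesoderm.

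For the further lists, shares of all genes are in brackets. The calls in YFP-positive cells against endoderm were 5 with no filter (1.15%), 5 with a minimum mean of 5 CPM (2.41%) and 9 with DESeq2 (8.1%). With the 2 types alone they were 9 (8.28%), and 9 in YFP-negative cells against endoderm (10.1%). In YFP-positive cells against hematopoietic mesoderm they were 0 with no filter (1.3%), 8 with DESeq2 (12.8%) and 0 with the 2 types alone (0.121%). DESeq2 gave 5 calls in YFP-negative cells against hematopoietic mesoderm (9.29%). In endoderm against hematopoietic mesoderm it gave 22 (15.4%), where RLE scaling gave 7 (5.02%). The cause of these shifts was not tested.

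Leaving out each library in turn, the median member log2 difference ran from 0.043 to 0.15 between the cardiac types, the lowest without YFP-negative replicate 3 and the highest without YFP-positive replicate 1. It ran from 0.083 to 0.22 in YFP-positive cells minus endoderm and from 0.070 to 0.13 in YFP-negative cells minus endoderm, with the lowest values without endoderm replicate 2 and replicate 3. It ran from -0.18 to -0.0038 in YFP-positive cells minus hematopoietic mesoderm, from -0.21 to -0.13 in YFP-negative cells minus hematopoietic mesoderm and from -0.43 to -0.22 in endoderm minus hematopoietic mesoderm. The members called ran from 0 to 2 in YFP-positive cells against hematopoietic mesoderm and from 0 to 3 in endoderm against hematopoietic mesoderm, the highest without hematopoietic replicate 2. The further lists' calls ran from 2 to 4 in YFP-positive cells against endoderm, 1 to 1 in YFP-negative cells against endoderm, 0 to 1 in YFP-positive cells against hematopoietic mesoderm and 4 to 10 in endoderm against hematopoietic mesoderm, the lowest without endoderm replicate 2 or 3. In these 4 pairs the share of all genes called ran from 0.473% to 1.04%, 0.46% to 0.658%, 0.695% to 2.79% and 1.2% to 6.41%.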
